A study of Mus musculus with 8 samples.

Results

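The 4 libraries described here are WT-1 to WT-4, RNA from whole hearts of wild-type mouse embryos (Mus musculus) at stage E18.5, shortly before birth. They are 4 of the 8 libraries of the series and were taken by their genotype label. The other 4, from hearts homozygous for CHD4 M195I, were not used, and genotypes were not compared. The members are the 21811 protein-coding genes among the 49315 genes counted. The labels give no strain, litter, pooling or treatment for these hearts, and the column headers of the count files begin with "Male". Each library is labelled as a separate sample, but no label ties a heart to a litter, so the spread between libraries may be partly technical. A whole heart is a mixture of cell types, and in such bulk RNA fewer cells of a type and less RNA per cell cannot be told apart.

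Levels between genes are compared in TPM, in which each count is divided by the exon length of its gene and scaled to 1000000 over all genes of a library. CPM values scale the counts in the same way but leave out gene length, which gives a long gene more weight. A value such as 6376 ± 655 is the mean and the standard deviation (SD) over the 4 libraries (n = 4), and CV is the SD as a percent of the mean. All results are descriptions of 1 group. No test was made between genes, because 4 libraries are too few for an exact sign-flip test to reach 0.05. Libraries were compared only by checks for repeated libraries and for outlying values.

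By background knowledge, the heart is built of cardiomyocytes, which contract by sliding actin and myosin filaments past each other, and of endothelial cells, fibroblasts, smooth muscle, epicardium and macrophages. Contraction is switched on by calcium that enters through the L-type channel, is released from the sarcoplasmic reticulum through the ryanodine receptor, and is pumped back by SERCA. The ATP comes from mitochondria, and the fetal heart burns mostly glucose and lactate, with a turn to fatty acids around birth. Most of these machines exist in several paralogues, genes that arose by duplication and that are used in different tissues, chambers or ages. In the mouse ventricle the beta myosin heavy chain of the fetus gives way to the alpha chain around birth, while the atria use the alpha chain throughout.

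Total counts ranged from 18375951 in WT-4 to 20815388 in WT-2. Protein-coding genes took 98.3% of counts in each library and between 93.2% and 93.5% of TPM. In log2 TPM of the 9003 genes at 10 TPM or more, Pearson's r across genes was 0.983 to 0.987 for pairs with WT-2 and 0.996 to 0.997 for the others. Genes are not independent replicates, so these are descriptions. Across these 9003 genes WT-2 was the library farthest from the median in 3419, against 1506 for WT-1, 1994 for WT-3 and 2084 for WT-4. The 6 airway and lung epithelium markers also set WT-2 apart. Their summed level was 1459 TPM in WT-1, 4.74 in WT-2, 1664 in WT-3 and 688 in WT-4. Epcam and Nkx2-1 were at 0 in WT-2 and between 0.999 and 8.59 TPM in the other libraries. WT-2 therefore held almost none of the airway transcripts that the other 3 held at different levels. The median CV, the biological CV and the number of genes over 30% CV are given with and without it.

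The heart label was checked against 15 lists of 6 marker genes. Cardiomyocyte markers summed to 11682, 11743, 11423 and 11083 TPM, with Myh6, Tnnt2 (cardiac troponin T) and Actn2 (alpha-actinin of the Z-disc) leading. The CV of that sum was 2.61%, and that of the endothelial and endocardial list was 1.89% around a mean of 604 TPM. Fibroblast and valve markers summed to 2934, 2401, 3054 and 3204 TPM, with WT-2 lowest. Smooth muscle markers, carried mainly by Acta2, summed to between 1717 and 1891 TPM. That sum hides a spread, since Acta2 was lowest in WT-4 while Myh11, Tagln, Rgs5, Pdgfrb and Cnn1 were each highest there. Rgs5, for example, had 87.9, 91.1, 100 and 136 TPM. Epicardial markers summed to between 278 and 320 TPM and macrophage markers to between 105 and 131 TPM. All 6 genes of each of these lists were at 1 TPM or more on average, so every cell type named in the background had its markers present.

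Apart from blood and airway, lists of tissues outside the heart summed to less than the endothelial and epicardial lists. They were not below every list of the heart. The brown fat list overlapped the macrophage list and lay above the conduction system list, which summed to between 44.5 and 55.8 TPM. The nerve and Schwann cell list summed to between 8.27 and 13.8 TPM, and the brain neuron list overlapped it. Red blood cell markers summed to 12663, 7420, 7195 and 13608 TPM, high in WT-1 and WT-4 and low in WT-2 and WT-3 without overlap. Liver markers summed to 53.8 TPM in WT-1 and to between 6.84 and 11.8 TPM in the other 3 libraries, with Alb (albumin) at 27.3, 3.30, 0.449 and 2.42 TPM. The sum of the thymocyte list was at most 1.28 TPM, and its Dntt was at 0 in every library. Myod1, which defines skeletal muscle, and Neurod1, of neurons, were also at 0 in all 4 libraries. The skeletal muscle list still summed to between 22.9 and 34.8 TPM, with 4 of its 6 genes at 1 TPM or more, among them Tnnt3 (8.23 ± 1.22 TPM) and Tnni2 (7.42 ± 1.93 TPM). The brain neuron list summed to between 10.2 and 14.8 TPM, most of it Slc17a7 (11.8 ± 1.46 TPM). Of the brown fat list, Ucp1 was at 0 in 3 libraries and at 0.0876 TPM in WT-2. That list still summed to between 103 and 112 TPM, because Ppargc1a and Cidea, which heart also expresses, were present.

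**Figure D1:**
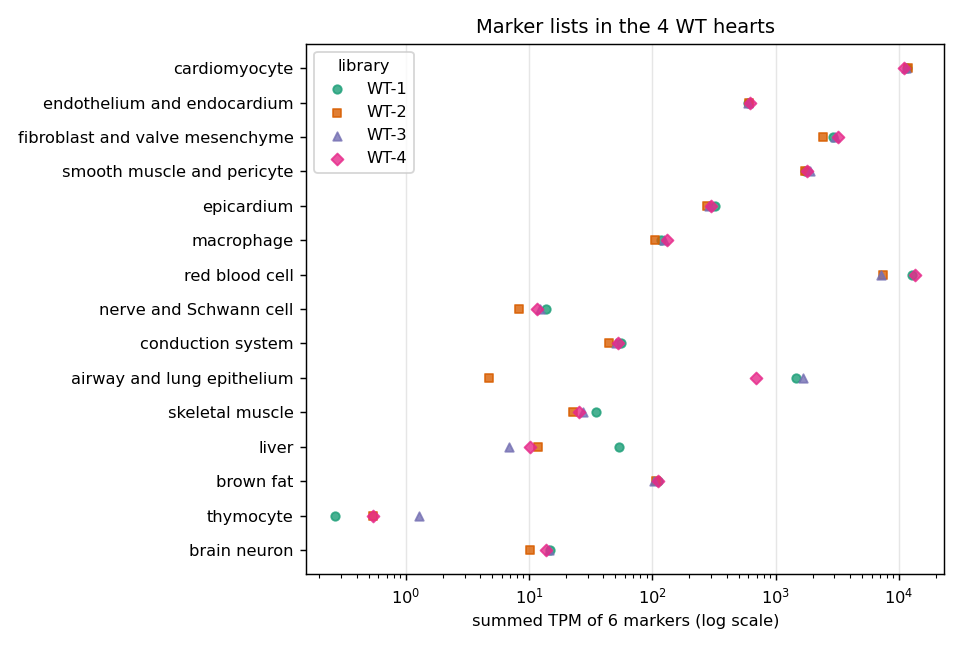
Summed TPM of 6 marker genes (horizontal, log scale) for 15 cell types and tissues, 1 point for each of the 4 WT libraries. The cardiomyocyte points coincide between 11083 and 11743, while the airway points run from 4.74 in WT-2 to 1664 in WT-3 and the liver point of WT-1 stands to the right of the others.

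Of the protein-coding genes, 13336 had a mean of 1 TPM or more, 9003 of 10 or more, 1409 of 100 or more and 108 of 1000 or more. No count was seen in any library for 4181 genes. Per library, 13481, 12970, 13468 and 13298 genes reached 1 TPM, the fewest in WT-2. A core of 12733 genes reached 1 TPM in every library and 1108 in some only. The median among genes with a mean of 1 TPM or more was 19.0 TPM, so the most abundant gene stood 3 orders of magnitude above the typical expressed gene.

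The transcriptome was concentrated in few genes. The single highest gene held 4.29 ± 0.0627% of protein-coding TPM, the highest 10 of each library 15.6 ± 0.446%, the highest 100 34.4 ± 0.607% and the highest 1000 65.0 ± 0.690%. Ranked by mean level, 349 genes were enough to hold 50% of it. The 108 genes at 1000 TPM or more held 35.2%, the 1301 genes from 100 to 1000 TPM held 34.8%, and the 7594 genes from 10 to 100 TPM held 27.7%. The 4333 genes between 1 and 10 TPM, 19.9% of all protein-coding genes, held 2.12%.

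**Figure D2:**
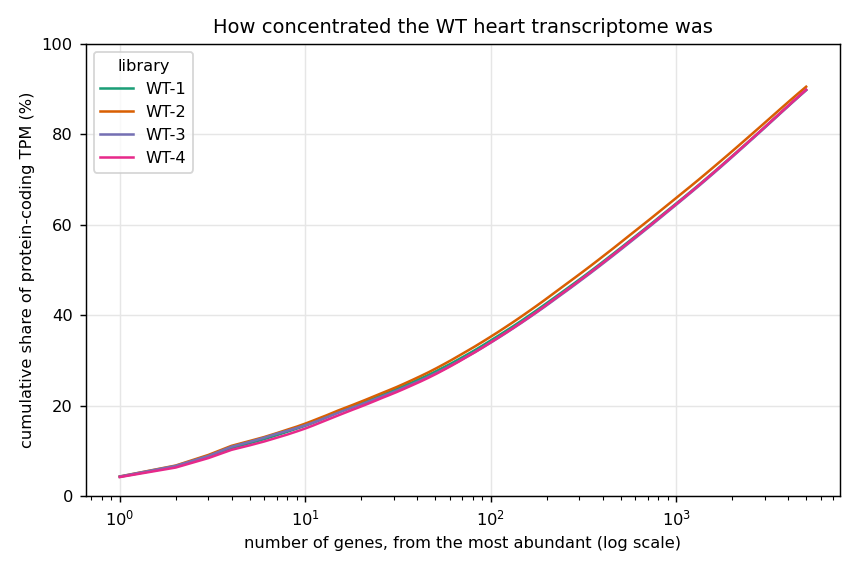
Cumulative share of protein-coding TPM (vertical, percent) against the number of genes counted from the most abundant (horizontal, log scale), 1 line for each WT library. The 4 lines lie close together, at 14.97 to 16.0% after 10 genes and 64.5 to 66.0% after 1000, with WT-2 highest.

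Transcripts of the mitochondrial genome led the ranking. These encode core subunits of the respiratory chain and ATP synthase. The 13 genes held 11.9 ± 0.443% of protein-coding TPM, and 7 of the 25 most abundant genes were among them. All counted genes of the mitochondrial genome, RNA genes included, took 4.404 to 4.83% of counts. The highest was mt-Co1, the catalytic subunit of cytochrome oxidase (MT:5328-6872), at 39757, 40477, 40451 and 39353 TPM. Its CV of 1.38% was the lowest among the 25. After it in this genome came mt-Nd1, a complex I subunit, at 21277, 22557, 21844 and 19720 TPM, and mt-Cytb, of complex III, at 17662, 18797, 18996 and 17057 TPM. WT-4 was lowest for all 3.

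The 13 mitochondrial genes were far from equal. A stretch of 4 neighbours, mt-Co2, mt-Atp8, mt-Atp6 and mt-Co3 (MT:7013-9390), had only 11.1 ± 2.29, 11.0 ± 2.20, 10.5 ± 2.05 and 34.8 ± 4.90 TPM. Their counts per library were between 10 and 229, against 364093 to 436471 for mt-Co1, which ends just before them. The next genes along the genome were higher again, with mt-Nd3 at 709 ± 73.3 TPM, mt-Nd4l at 120 ± 9.04 TPM and mt-Nd4 at 4841 ± 319 TPM. All 4 libraries had the same low stretch. The sources used here do not give how the counting treated reads that match more than 1 place, and its part in the low values was not tested.

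Sarcomere genes made up the next tier. Actc1, cardiac alpha-actin of the thin filament (chr2:114047282-114053548), was the highest nuclear gene in the mean, at 20535, 21845, 20530 and 19558 TPM. Only mt-Co1 and mt-Nd1 had a higher mean. The myosin heavy chains Myh6 and Myh7 and the light chains Myl2, Myl7 and Myl3 were all among the 25, as was Tnnc1, the calcium sensor of the thin filament, at 4453, 4735, 4499 and 4257 TPM. Myosin heavy and light chains together held 3.42 ± 0.0765% of protein-coding TPM, the 6 actins 2.57 ± 0.105% and the 12 troponins and tropomyosins 1.37 ± 0.0476%. The libraries therefore differed little in sarcomere share, as they had in the cardiomyocyte marker sum.

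Nppa, which encodes atrial natriuretic peptide, a hormone made by atria and by fetal ventricle (chr4:148000722-148002079), was eighth at 6014, 7249, 5759 and 6482 TPM, highest in WT-2. Of its exon bases 61.5% overlap those of Gm13054, which had 13.6 CPM against 1817 CPM for Nppa. Eef1a1, which delivers tRNA to the ribosome, had 5814, 5751, 5500 and 6057 TPM. The adenine nucleotide translocator Slc25a4 (3437 ± 133 TPM), the fatty acid binding protein Fabp3 (3304 ± 212 TPM), the oxygen store Mb (2969 ± 201 TPM) and the ATP synthase subunits Atp5a1 (3035 ± 61.6 TPM) and Atp5b (2971 ± 53.5 TPM) also belonged to the 25. Atp2a2, the calcium pump SERCA2, closed that list at 2845, 2644, 2814 and 2891 TPM, lowest in WT-2. The list was nearly the same in every library, with 23 genes in the highest 25 of all 4, and 91 in the highest 100 of all 4.

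**Figure D3:**
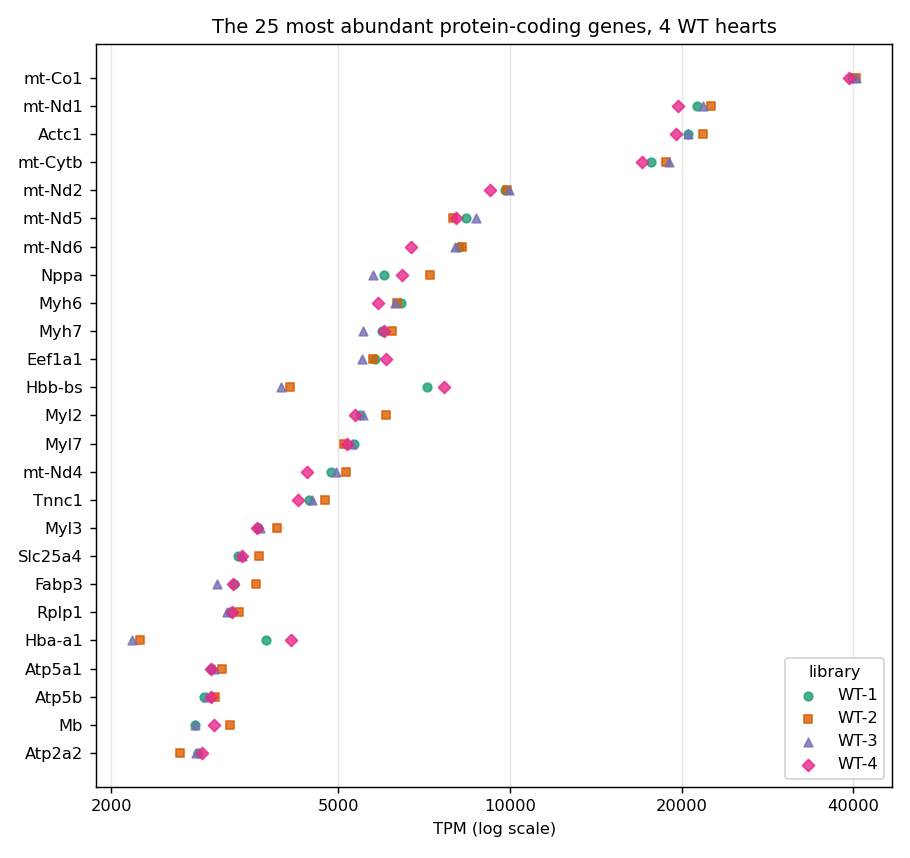
TPM (horizontal, log scale) of the 25 protein-coding genes of highest mean level, in order of the mean, 1 point for each WT library. Points of a gene lie close together except for the globins Hbb-bs and Hba-a1, which were higher in WT-1 and WT-4 than in WT-2 and WT-3.

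Both a beta and an alpha globin were in the list, written here with the caution that reads of near-identical copies may be split between them. Hbb-bs, an adult beta globin, had 7171, 4122, 3964 and 7667 TPM, and Hba-a1, an adult alpha globin, had 3732, 2248, 2175 and 4127 TPM. Both were high in WT-1 and WT-4 and low in WT-2 and WT-3. The embryonic globins were near 0 beside them, with Hbb-y at 3.20 ± 1.53 TPM, Hba-x at 2.37 ± 0.959 TPM and Hbb-bh1 at 0 in 3 libraries. Globins held 1.48, 0.869, 0.839 and 1.59% of protein-coding TPM. Their CV of 33.1% compares with 2.24% for the myosins, and Alas2, the haem enzyme of red cell precursors, was likewise higher in WT-1 and WT-4 than in WT-2 and WT-3, at 122, 64.8, 72.6 and 130 TPM.

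Outside these groups, 85 cytosolic ribosomal protein genes held 6.41 ± 0.148% of protein-coding TPM, led by Rplp1 at 3257 ± 69.0 TPM. The 87 nuclear genes of the respiratory chain and ATP synthase held 6.25 ± 0.216%. Heat shock protein genes held 0.881 ± 0.0110%, with Hspb7, a small heat shock protein of heart muscle, at 1183 ± 44.9 TPM. Collagen chains held 0.557 ± 0.0597%, from 0.473% in WT-2 to 0.612% in WT-4. The 371 solute carriers varied least of the named groups, at 1.24 ± 0.00694%. At the other end, 4 of 1134 olfactory receptor genes and 7 of 39 Hox genes reached 1 TPM. The highest of these were Olfr1033 at 12.04 ± 2.19 TPM and Hoxb4 at 3.57 ± 1.00 TPM.

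The choice of length changed the order of single genes. By CPM the leaders were mt-Co1 (20348 ± 485), Myh7 (16750 ± 969), Myh6 (13035 ± 612), Actc1 (10984 ± 639) and Tnnt2 (6958 ± 281). Of the 25 highest genes by TPM, 15 were also among the 25 highest by CPM. Ttn, which encodes the giant spring titin, was eleventh by CPM at 4228 ± 99.3 but 1255th by TPM at 110 ± 2.13, because its exon length is 116825 bases. The exon length of the count files comes from an annotation release that is not given, and the coding transcript length from GENCODE M21. The 2 lengths can therefore differ in either direction. Slc8a1 has 2934 exon bases against 18464 in its longest coding transcript, and Myl6 has 665 against 1668. For 158 genes at 100 TPM or more the exon length was over 2 times the length of the longest annotated coding transcript. Tnnt2 moved most among the leaders, with 7752 bases against 1200, and from rank 26 at 2726 ± 75.2 TPM to rank 5 with the shorter length. With that length, 19 of the 25 genes remained in the list.

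Some promoters of these leading genes are shown because they differ in the motifs they carry. The stretches are 120 bases of RefSeq sequence (GRCm38.p6), 5′ to 3′ on the strand of the gene. Each lies before the RefSeq start used, which for Actc1, Eef1a1, Myl3 and Atp5b is inside the annotated gene. They hold no exon base of their gene as the count files give it. Capitals mark a CArG box, the site of serum response factor, in Actc1, Myl7 and Myl3, a TATAAA in Nppa, and CCAAT in Myl7, Myl3 and Atp5b. Eef1a1 has no capitals because none of the motifs lies in its stretch. The Actc1 stretch is chr2:114052888-114053007, minus strand, and its CArG box starts 47 bases before the RefSeq start.
Actc1: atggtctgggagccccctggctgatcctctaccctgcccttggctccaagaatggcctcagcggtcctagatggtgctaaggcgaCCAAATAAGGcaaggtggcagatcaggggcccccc
The Myl7 stretch is chr11:5898783-5898902, minus strand, with the CArG box 61 and CCAAT 79 bases before the start.
Myl7: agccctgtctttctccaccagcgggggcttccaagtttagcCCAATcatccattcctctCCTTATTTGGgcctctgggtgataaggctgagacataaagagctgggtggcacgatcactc
The Myl3 stretch is chr9:110763526-110763645, plus strand, with the CArG box 85 and CCAAT 92 bases before the start.
Myl3: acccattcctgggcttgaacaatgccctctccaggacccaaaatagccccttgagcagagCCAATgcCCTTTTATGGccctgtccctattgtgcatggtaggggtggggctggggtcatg
The Nppa stretch is chr4:148000602-148000721, plus strand.
Nppa: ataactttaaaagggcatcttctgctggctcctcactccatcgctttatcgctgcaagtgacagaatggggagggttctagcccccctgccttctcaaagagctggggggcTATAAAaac
The Eef1a1 stretch is chr9:78481725-78481844, minus strand, and its 250 bases before the start hold 18 CpG pairs, against 4 for Actc1.
Eef1a1: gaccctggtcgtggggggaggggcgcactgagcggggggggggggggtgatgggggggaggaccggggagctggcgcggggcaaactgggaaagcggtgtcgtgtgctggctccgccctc
The Atp5b stretch is chr10:128083153-128083272, plus strand, and its 250 bases hold 14 CpG pairs.
Atp5b: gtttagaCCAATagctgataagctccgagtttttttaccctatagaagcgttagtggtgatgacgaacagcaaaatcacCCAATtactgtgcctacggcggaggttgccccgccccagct

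Over the 250 bases before the start, the 50 most abundant nuclear genes with a sequence were set beside all 14318 nuclear genes with one. Because 17 of the 50 highest nuclear genes had no matched sequence, the 50 used here include genes of lower rank. A CArG box, searched by name on both strands, lay in 8.0% of the 50 (Actc1, Myl7, Myl3 and Myl9) and in 1.39% of all. CCAAT or its reverse ATTGG lay in 50% of the 50 and 36.4% of all. TATAAA in the last 60 bases, on the gene's strand only, lay in 6.0% and 3.97%. A MEF2 box, on both strands, lay in 2.0% (Mybpc3) and 0.503%. TATAAA can lie within a CArG or a MEF2 box. Such matches are descriptions of the letters in these windows and were not tested.

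Base composition followed abundance in classes rather than at the top. Genes under 1 TPM had a median GC content of 47.2% in that window and 2 CpG pairs, and 7.92% of them had TATAAA. The 8527 genes at 1 TPM or more below rank 500, ranked among genes with a sequence, had 60% GC and 16 CpG pairs, and 1.56% had TATAAA. The 50 most abundant with a sequence lay between, with 57.6% GC and 11 CpG pairs.

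Paralogue choice was described in 100 families with 344 members. In 21 families the leading member held 90% or more of the summed TPM of its family, in 60 between 50 and 90%, and in 19 under 50%. The median share of the leader was 69.3%. Shares were stable between libraries, with a median SD of 0.773 percentage points and a largest SD of 3.11, in the TGF-beta ligands. The leader was above the second member in all 4 libraries in 97 families, the exceptions being the striated myosin heavy chains, the filamins and carnitine palmitoyltransferase 1. With the coding transcript length the leader was the same in 86 families. Leaders at 90% or more were found in 5 of 15 sarcomere, 6 of 19 excitation, 4 of 26 energy, 3 of 20 regulatory and 3 of 18 structural families, and in 0 of 2 globin families. The median share of the leader was 88.7% among the excitation families and 53.9% among the regulatory ones.

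**Figure D4:**
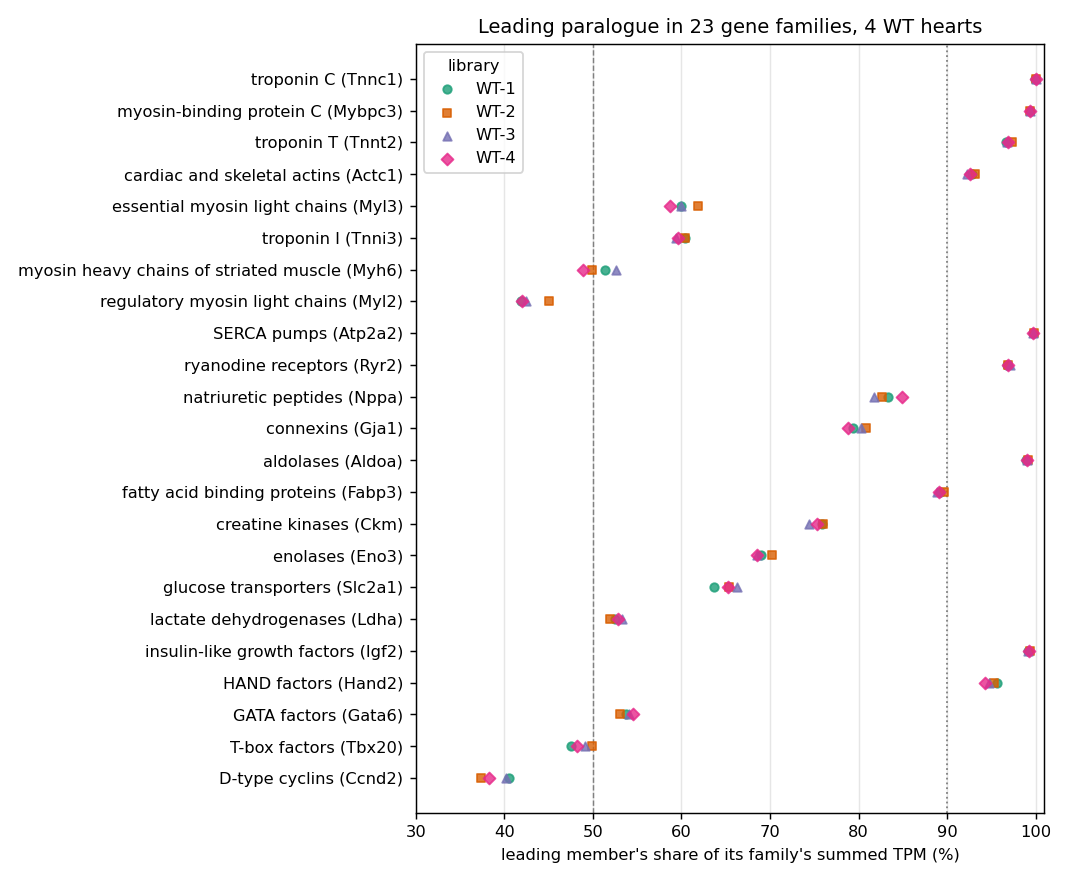
Share of the leading member in the summed TPM of its family (horizontal, percent) in 23 of the 100 families, with the leader in brackets and 1 point for each WT library. The dashed line is at 50% and the dotted line at 90%. Troponin C, myosin-binding protein C and SERCA lie at the right edge, while the Myh6 points lie on both sides of the dashed line.

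In the thin filament, troponin C, troponin T and the muscle actins were each led by 1 form at over 90%. Tnnc1, cardiac troponin C, held 99.99 ± 0.00798% of its pair, with the fast skeletal Tnnc2 at 0.391 ± 0.361 TPM, where 74.0% of its exon bases overlap Ube2c. Tnnt2 held 96.9 ± 0.302% of troponin T. Actc1 held 92.7 ± 0.412% of the muscle actins, and smooth muscle Acta2 6.603 ± 0.370%. Skeletal alpha-actin, Acta1, had 132, 126, 122 and 122 TPM, well below the Actc1 values. Tropomyosins were led by Tpm1 at 70.9 ± 1.04%, with Tpm4 at 18.3%, or 9.64% with the coding transcript length.

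Troponin I was shared between both the cardiac form and the slow skeletal form that the fetal heart uses. Tnni3, the cardiac form, had 1762, 1943, 1755 and 1766 TPM, highest in WT-2. Tnni1, the slow form, had 1144, 1270, 1191 and 1193 TPM. Tnni3 was higher in every library and held 59.9 ± 0.530% of the family. With the coding transcript length it held 52.0%, and by CPM Tnni1 was the higher one.

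The 2 cardiac myosin heavy chains were nearly equal. Myh6, the alpha chain (chr14:54941981-54966927), had 6451, 6338, 6281 and 5884 TPM. Myh7, the beta chain next to it in the genome (chr14:54970688-54994634), had 5965, 6203, 5520 and 6014 TPM. Their ranges overlapped, Myh6 was higher in 3 of 4 libraries, and its mean share was 50.7 ± 1.65%. The log2 ratio of Myh6 to Myh7 was 0.07 ± 0.10 by TPM. It was -0.33 with the coding transcript length and -0.36 by CPM, so the order of the 2 genes depended on the length used. The exon length of the files is 8586 bases for Myh7 and 6347 for Myh6. The other heavy chains were far lower, with Myh7b at 138 ± 8.65 TPM, Myh8 at 6.70 ± 0.187 TPM, Myh3, of embryonic skeletal muscle, at 0.664 ± 0.227 TPM and Myh4 at 0.

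Light chains of both chambers were present. Myl2, the ventricular regulatory light chain, had 5462, 6067, 5522 and 5347 TPM. Myl7, the atrial one, had 5338, 5129, 5285 and 5188 TPM, with a CV of 1.79%. Myl2 was the higher in all 4 libraries, by 0.10 ± 0.10 on the log2 scale, and the gap came mainly from WT-2. With the coding transcript length Myl2 held 61.9% of the family in place of 42.8 ± 1.5%. Of the essential light chains, the ventricular Myl3 held 60.1 ± 1.31%, smooth muscle and non-muscle Myl6 25.5% and the atrial Myl4 11.5%, at 706 ± 20.6 TPM. With the coding transcript length the order of these last 2 reversed, with Myl6 at 5.01% and Myl4 at 27.8%. For Myl6 that transcript, of 1668 bases, is longer than the exon length of 665, and for Myl4 it is shorter.

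Thick filament and Z-disc partners followed the cardiac pattern. Mybpc3, cardiac myosin-binding protein C, held 99.4 ± 0.0316% of its family and had 2457, 2503, 2409 and 2467 TPM. Actn2 held 84.5 ± 0.522% of the alpha-actinins. Myoz2, a Z-disc binder of calcineurin, held 94.9 ± 0.492% of the myozenins, at 214 ± 10.1 TPM. The M-band genes Myom1 and Myom2 stood at 73.6 and 26.3%. Flna and Flnc, the broadly expressed and the muscle filamin, had 267 ± 13.3 and 259 ± 4.81 TPM and overlapped between libraries.

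Calcium handling was dominated by single cardiac forms. Atp2a2 held 99.7 ± 0.0623% of SERCA transcripts, Slc8a1, the sodium-calcium exchanger, 98.9 ± 0.0471%, Ryr2, the calcium release channel, 96.9 ± 0.143% and Jph2, which ties the cell membrane to the reticulum, 95.6 ± 0.158%. With the coding transcript length Slc8a1 held 93.3%. Casq2, the calcium buffer of the reticulum, held 89.1 ± 1.21%. Of the SERCA inhibitors, Pln (phospholamban) had 2169, 2321, 2109 and 2145 TPM and Sln (sarcolipin, atrial in the mouse) had 278, 282, 267 and 287 TPM. Pln was lower than the pump Atp2a2 (2798 ± 108 TPM) in every library, without overlap. Cacna1c held 89.6 ± 0.658% of the L-type pores, at 50.5 ± 1.67 TPM. The T-type pores Cacna1h (32.9 ± 1.08 TPM) and Cacna1g (28.0 ± 3.31 TPM), known from fetal and pacemaker tissue, were both present, as were 3 IP3 receptors, led by Itpr1 at 44.1%.

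Among the genes of excitation and coupling, Gja1 (connexin 43), the gap junction protein of working muscle, had 697, 732, 744 and 698 TPM and held 79.8 ± 0.878%. Gja5, of atria and conduction tissue, had 51.1 ± 3.18 TPM. Hcn4, the pacemaker channel, had 19.8, 14.6, 19.7 and 18.1 TPM and held 83.8 ± 1.4% of its family. Adrb1, the beta-1 adrenergic receptor, held 93.8 ± 1.90% at 28.5 ± 1.34 TPM. Of the CaMKII genes Camk2g led by exon length at 56.5 ± 0.259%, but with the coding transcript length Camk2d led at 42.7%. Nppa held 83.2 ± 1.34% of the natriuretic peptides, and Nppb, of brain natriuretic peptide, had 1205, 1519, 1281 and 1146 TPM, also highest in WT-2.

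Glycolysis drew on muscle forms at some steps and on general forms at others. Aldoa held 99.0 ± 0.0744% of the aldolases and Pkm 99.98 ± 0.00683% of the pyruvate kinases. Pgam2, the muscle phosphoglycerate mutase, held 83.6 ± 0.376%, and Eno3, the muscle enolase, 69.1 ± 0.781% by exon length. With the coding transcript length Eno1 led the enolases at 51.3%. Slc2a1, the glucose transporter of fetal heart, had 172, 184, 181 and 184 TPM. Slc2a4, the insulin-regulated transporter of adult muscle, had 87.2, 85.7, 81.9 and 86.9 TPM, so the fetal form was the higher in every library. Hexokinase was divided between Hk1 (204 ± 3.18 TPM) and Hk2 (147 ± 4.19 TPM). With the coding transcript length Hk1 held 71.7% and Hk2 27.9%.

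Lactate dehydrogenase was close to evenly divided. Ldha, whose subunit favours lactate formation, had 1577, 1630, 1599 and 1624 TPM. Ldhb, whose subunit prevails in the adult heart, had 1426, 1508, 1399 and 1453 TPM. Ldha was higher in every library, at 52.6 ± 0.576% of the family and 62.7% with the coding transcript length. The 4 pyruvate dehydrogenase kinases were also spread out, with Pdk1 and Pdk2 at 171 ± 2.95 and 162 ± 6.47 TPM and Pdk4, a gene of fasting and adult muscle, at 48.5 ± 3.47 TPM.

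Genes of fatty acid use were present beside them. Fabp3 held 89.2 ± 0.322% of the fatty acid binding proteins, and 65.9% with the coding transcript length. Cpt1a, the liver-type gate of mitochondrial fatty acid entry, had 73.1, 67.7, 70.5 and 73.7 TPM, and Cpt1b, the muscle type, had 69.0, 70.9, 62.0 and 69.6 TPM. Cpt1a was higher in 3 of 4 libraries, their ranges overlapped, and 81.4% of the exon bases of Cpt1b overlap those of Chkb, so the order of the pair is uncertain. Acsl1 led the acyl-CoA synthetases at 47.4 ± 2.56%, and at 71.3% with the coding transcript length. Ckm, the muscle creatine kinase, had 2416 ± 65.4 TPM and 75.4 ± 0.735% of its family, and Ckb, the brain form that fetal heart also uses, 16.7%.

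Subunits of cytochrome oxidase with heart and liver forms were mixed. Cox6a2, the heart form, had 1421, 1719, 1445 and 1489 TPM. Cox6a1, the liver form, had 1315, 1386, 1409 and 1360 TPM. Cox6a2 was the higher in each library by exon length, and Cox6a1 with the coding transcript length, at 52.6%. Cox7a2, the liver form, had 822 ± 32.1 TPM and the heart form Cox7a1 had 641 ± 23.4 TPM. Cox8a held 65.1 ± 1.25% against the heart form Cox8b. Cox4i1 held 98.2 ± 0.184% against Cox4i2, and Cox6b1 98.9 ± 0.181% against Cox6b2. Slc25a4, the heart and muscle translocator, held 75.5 ± 0.305% of its family.

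Transcription factor families differed in how one-sided they were. Nkx2-5, a homeobox factor of cardiomyocytes, had 269, 290, 295 and 300 TPM, the most in WT-4. Gata6 had 215, 209, 226 and 229 TPM and Gata4 had 165, 166, 171 and 172 TPM, so that Gata6 was higher in every library and held 53.8 ± 0.617% of the family. Hand2 held 95 ± 0.590% against Hand1. Tbx20 held 48.7 ± 1.07% of the T-box factors, followed by Tbx5 at 26.0%. Mef2d led the MEF2 factors at 53.9 ± 1.65% by exon length and Mef2a at 53.6% with the coding transcript length. Thra, a thyroid hormone receptor, held 98.9 ± 0.143% against Thrb.

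Among growth factors, 1 fetal gene stood far above its relative. Igf2, the fetal insulin-like growth factor, had 1849, 1750, 1773 and 1853 TPM and held 99.2 ± 0.0990% against Igf1. H19, the non-coding gene beside Igf2 that is imprinted in the opposite direction, had 6369, 6278, 6060 and 6487 TPM, a mean between those of Nppa and Myh6. Cdkn1c, an imprinted inhibitor of cell division, had 225 ± 5.73 TPM and held 62.8 ± 0.121% of its family. Cdk4 held 89.0 ± 0.742% against Cdk6. The D-type cyclins were all present, with Ccnd2 at 120 ± 5.18, Ccnd1 at 98.9 ± 3.49 and Ccnd3 at 87.6 ± 2.57 TPM. With the coding transcript length Ccnd3 led at 54.6%.

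Apart from Chd5, the genes named here were at moderate levels for the NuRD complex, the chromatin remodeller that contains CHD4. Chd4, its ATPase, had 170, 162, 168 and 173 TPM, Chd3 had 59.4, 48.9, 56.3 and 59.3 TPM and Chd5 had 0.482 ± 0.131 TPM. Chd4 was the higher in every library and held 74.9 ± 1.24%. Of the other subunits, Mbd3 held 69.6 ± 1.42% against Mbd2, Mta1 had 94.1 ± 2.93 and Mta2 75.3 ± 1.53 TPM, and the histone deacetylases Hdac2 and Hdac1 had 93.1 ± 2.87 and 74.9 ± 3.53 TPM. Of the ATPases of the BAF complex, Smarca4 held 81.2 ± 0.938% against Smarca2, and 64.5% with the coding transcript length.

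Structural families held members known from different cell types of the organ. Vim, the intermediate filament of mesenchyme and endothelium, had 796, 834, 801 and 873 TPM. Des, that of muscle, had 756, 807, 736 and 771 TPM and was lower in every library. Cdh5, the cadherin of endothelium, had 216 ± 7.35 TPM, and Cdh2, that of cardiomyocytes, 133 ± 1.8 TPM. Cav1, which endothelium expresses strongly, had 482 ± 11.1 TPM and the muscle form Cav3 had 194 ± 12.4 TPM. Epithelial Cdh1 had 9.53, 0.282, 11.6 and 4.64 TPM, lowest in WT-2 like the airway markers. Eef1a1 held 91.9 ± 0.443% against Eef1a2, the form that replaces it in adult muscle, and Rpl3 held 99.3 ± 0.0871% against the muscle form Rpl3l.

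The spread between libraries was small for most genes. Over the 9003 genes at 10 TPM or more the median CV was 4.79%, where counting error alone gives a median of 3.30%, and 53.3% of them had a CV under 5%. Common biological CV from edgeR, which removes counting error, was 0.0600, and 0.0449 without WT-2. The median CV without WT-2 was 3.92%. By abundance, the median CV was 12.6% for genes of 1 to 10 TPM, 5.08% for 10 to 100, 3.49% for 100 to 1000 and 3.83% above 1000 TPM, where counting error was 0.746%. Counting error and floors cover sampling of reads only.

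**Figure D5:**
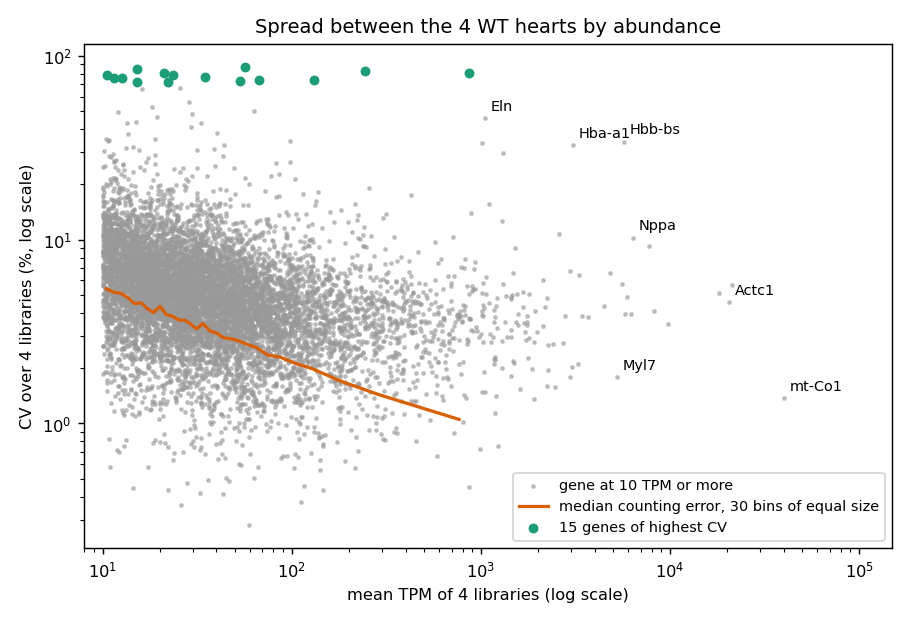
CV over the 4 WT libraries (vertical, percent, log scale) against mean TPM (horizontal, log scale) for genes at 10 TPM or more, with the median counting error in 30 bins of equal size as a line and the 15 genes of highest CV as larger points. Those 15 lie between 72.0 and 87.2%, above nearly all other genes, and mt-Co1 lies at 1.38%.

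The steadiest genes had a CV below counting error. Copg2, a coat protein of transport vesicles, had 59.2, 59.5, 59.2 and 59.2 TPM, a CV of 0.280% where counting error is 2.26%. Vdac1, the main pore of the mitochondrial outer membrane, had 870 ± 3.91 TPM and a CV of 0.450%. The 10 genes of lowest CV (the others were Glod4, Wbp2, Arfgap1, Tmem101, Stam2, Cd93, Pex14 and Sh3glb1) all had a CV below their counting error, and were chosen as the lowest of 9003 values.

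Genes often used as a reference differed in spread. Sdha, a subunit of complex II, had 798, 815, 799 and 809 TPM and a CV of 1.02%, Ppia 1.11% and Rpl13a 1.47%. Actb had a CV of 2.10% and Gapdh of 4.84%, with 2177, 2366, 2123 and 2280 TPM. Tfrc, the transferrin receptor, had the largest of the 18 at 12.9%. Tbp was the only one of the 18 under 10 TPM, at 4.85 ± 0.179 TPM.

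Only 45 of the 9003 genes, 0.4998%, had a CV over 30%, and 36 of these were lowest in WT-2. Over all 9003 genes WT-2 was the library farthest from the median in 3419, in either direction. The share of all 9003 genes that were lowest in WT-2 was not counted, so the 36 have no matching background share. Without WT-2, 28 of the 45 still exceeded 30%, 20 of them among the 36. The 15 genes of highest CV were all lowest in WT-2. Many are known from airway secretory and ciliated cells. Scgb3a2, a secretoglobin of airway club cells, had 1331, 2.77, 1517 and 613 TPM. Reg3g, an antimicrobial lectin of epithelia, had 95.8, 0.271, 100 and 30.3 TPM, and Foxj1, the master factor of motile cilia, had 19.4, 0.710, 17.6 and 8.02 TPM. WT-1 and WT-3 were high in each, WT-4 between and WT-2 near 0. Muc5b, Scgb3a1, Sec14l3, Lrrc23, Cyp2f2, Sftpb, Cbr2, Scgb1a1, Wfdc2, Krt15, Chad and Lypd2, the last at 0 in WT-2, had CVs from 72.0 to 85.2%. How much tissue beside the heart was in each sample was not tested.

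Genes of the artery wall formed another set with a wide spread; these were chosen after their values were seen. Eln, which encodes elastin, had 804, 637, 1045 and 1743 TPM. Fbln5, which assembles elastic fibres, had 46.4, 37.4, 60.5 and 109 TPM, and Myh11, the myosin of smooth muscle, 25.9, 15.3, 31.8 and 44.2 TPM. All were highest in WT-4 and lowest in WT-2, whereas Acta2, with 1433, 1451, 1575 and 1410 TPM, was lowest in WT-4. Collagens followed partly, with Col1a1 at 1116, 867, 1191 and 1268 TPM. Blood markers had another order, since they were high in WT-1 and WT-4.

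Genes of the Y chromosome were also chosen after their values were seen. Ddx3y had 45.9, 41.4, 47.0 and 20.9 TPM and Eif2s3y had 54.1, 49.3, 50.4 and 22.5 TPM. Uty had 8.45, 8.44, 8.51 and 4.86 TPM and Kdm5d had 7.11, 6.93, 7.04 and 3.88 TPM. WT-4 was lowest for all 4, below every other library. Xist, transcribed from the inactive X of females, had 0.265, 0.216, 0.218 and 0.214 TPM, so WT-4 did not have more of it. Why the Y genes were lower in WT-4 was not tested. The early response gene Atf3 had a further order, with 34.6, 54.2, 51.6 and 21.4 TPM, also lowest in WT-4. Other early response genes were lowest there too. Fos had 13.2, 11.0, 16.1 and 9.51 TPM, Egr1 had 31.8, 32.7, 35.5 and 28.3 TPM, and Jun had 156, 172, 182 and 130 TPM.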

How the data were processed

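The libraries came from Trizol RNA and an Illumina TruSeq preparation, per the labels' protocols. The submitters' processing notes list Trimmomatic 0.36, STAR 2.5.2b, featureCounts, Subread 1.5.2 and the build GRCm38 (mm10). The authors deposited raw read counts for each gene, as the file headers show, in a table of the series and in 1 file per library that adds exon length. Both held identical values. The sources used here do not give the annotation release, the strand setting or the treatment of reads with several matches.

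Symbols and coding status came from GENCODE M21, in which 91.44% of genes had the same position. TPM used exon length and all genes, and CPM used library totals. Spread was estimated with edgeR 4.0.16 in R 4.3.3 (estimateDisp, robust, TMM, filterByExpr with a minimum count of 10) for 15068 genes. On simulated counts with a biological CV of 0.1 and 0.05 it gave 0.0993 and 0.0499. Where 200 genes were set to 0.6 instead, it gave 0.126 and 0.0913, above the values set for the rest. The part of genes with a wide spread in the estimate for these libraries was not tested. Pairs of libraries differed by a chi-square per degree of freedom of 2.72 to 8.52, which is above sampling noise for every pair. Promoters were matched for 14318 of 21787 nuclear genes whose RefSeq start lay within 100 bases of a principal GENCODE start. Exons of 112 of 370 checked genes overlap another gene, 14 of them over 20% of their bases.

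Members, families, markers and other lists were chosen with earlier results of these data known. Named were the 25 genes of highest TPM, the 10 of highest CPM, the 15 highest and 10 lowest in CV at 10 TPM or more (Gm, Rik and -ps symbols left out), members of 101 families (1 held a single gene and was not used, and some members are not reported here), 15 marker lists and 18 reference genes. The group leaders by gene name, mitochondrial genes, H19, artery wall, Y-linked genes, Xist, the early response genes and Ttn were named after their values were seen. Alternatives were other scalings, lengths and thresholds, mitochondrial genes left out, and each library left out. Python 3.11.15, pandas 2.3.3 and matplotlib 3.10.9 were used.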

Additional observations from a re-analysis of the deposited data

Results flagged for a closer look

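Of 284 values or sums checked with Dixon's ratio, which compares the gap of the farthest library with the range of all 4, 13 were above its 95% critical value for 4 values, which is no more than the 1 in 20 that chance flags, so they are given as values only. WT-2 was the distant library in 8 of them. It had fewer genes at 10 TPM or more (8802 against 9057 to 9076, ratio 0.931), higher Tnni3 (0.940), Myl3 (0.848), Slc25a4 (0.844), Cox7a2 (0.842) and Copg2 (0.862), and lower Itgb1 (0.865) and Hk1 (0.831). For Tnni3 the value was 1943 TPM against 1755 to 1766, and for Copg2 59.5 against 59.2, a gap under counting error. WT-4 had lower mt-Nd6 (0.863, 6713 TPM against 8029 to 8239) and Tbp (0.909), and higher Rplp0 (0.867). WT-1 had higher liver markers in sum (0.894, 53.8 TPM against 6.84 to 11.8) and Wbp2 (0.881).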

How the results depend on the processing

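The share of the 10 genes of highest mean level was 15.5% by TPM, 13.3% with the coding transcript length, 9.86% by CPM and 8.48% without mitochondrial genes. That of 100 genes was 34.4%, 33.0%, 24.6% and 26.5%. Families with a leader past the threshold numbered 36 at 80% in place of 21 at 90%. Genes with a CV past the threshold numbered 98 at 20% and 20 at 50% in place of 45 at 30%. Other scalings and filters kept each count or share within its spread or within 1.5 times. With 1 library left out, genes at 1 TPM numbered 13264 to 13434, genes over 30% CV 37 to 58, the median CV was 3.92 to 4.88%, the biological CV 0.0449 to 0.0691, the 2 shares 15.3 to 15.7% and 34.1 to 34.5%, and families 21 each time. The leader of some families changed with the length. The log2 ratio of leader to second turned negative under the coding transcript length and by CPM for heavy chains (-0.33 and -0.36), enolases (-0.0838 and -0.46), AMPK gamma (-0.85 and -1.86), PPAR (-0.18 and -0.12), calcium channel beta (-0.94 and -1.47), MEF2 (-0.70 and -0.73), YAP and TAZ (-0.51 and -0.34), TGF-beta (-0.86 and -0.22) and fibrillar collagens (-0.36 and -0.26). It did so under the coding transcript length alone for Cpt1 (-0.15), Cox6a (-0.15) and RPL22 (-0.15), and by CPM alone for troponin I (-0.21), glycogen phosphorylases (-0.12), Kir2 (-0.62), MTA (-0.0777), IGF and insulin receptors (-0.13), lamins (-0.0432) and cadherins (-0.24). The only change in these settings is the length. No paired analysis was possible because only 1 group entered and no test was made. Depth limits genes under 1 TPM, whose median CV was 46.2% from 0.1 to 1 TPM.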
